A study of Homo sapiens with 16 samples.

Results

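The genes described here are 9 enzymes and enzyme subunits that make, recycle or remove the deoxynucleotides from which DNA is built: RRM1, RRM2, RRM2B, TYMS, DUT, TK1, DCK, SAMHD1 and DCTPP1. They were chosen by symbol, and each matched 1 of the 58302 gene identifiers in the expression table. The identifiers are ENSG00000167325 (RRM1), ENSG00000171848 (RRM2), ENSG00000048392 (RRM2B), ENSG00000176890 (TYMS), ENSG00000128951 (DUT), ENSG00000167900 (TK1), ENSG00000156136 (DCK), ENSG00000101347 (SAMHD1) and ENSG00000179958 (DCTPP1). All 9 passed the filter of a mean of at least 1 FPKM (reads scaled to gene length and library size), which left 14004 genes. The cells were UM-UC-3, an established human bladder cancer line, transfected with 75 nM of a control siRNA or of an siRNA against NAT10 and taken at 48 h. NAT10 is the enzyme that writes N4-acetylcytidine (ac4C) on RNA. RNA-seq was available as replicates 2 and 3 of each arm, with between 16965915 and 35043602 reads recovered per library. In acRIP, RNA is pulled down with an antibody against ac4C, and 4 peak lists were used, 1 per arm in each of a first and a replicate round. Only their names tell which arm the first-round lists belong to. T24 cells, another line of the series, were not analysed here, nor was another pair of UM-UC-3 RNA-seq libraries. Both arms went through transfection, and each arm rests on 1 siRNA sequence and 1 cell line. The labels do not state whether replicate libraries had cultures of their own, so p-values measure only the spread between these 4 libraries, and that spread may be technical. The siRNA strands given in the labels are shown because they define the arms, with the 19-base core in capitals and the overhang in lower case.
control siRNA: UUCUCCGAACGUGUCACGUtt
NAT10 siRNA: CCAUCUCUCGCAUCUAUUUtt

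Cells make deoxynucleotides by reducing ribonucleotides, a step carried out by ribonucleotide reductase, which joins a large catalytic subunit (RRM1) to a small subunit that carries the radical (RRM2, or its p53-inducible relative RRM2B). Thymidylate is made separately: dUTPase (DUT) turns dUTP into dUMP, and thymidylate synthase (TYMS) methylates it, while thymidine kinase 1 (TK1) and deoxycytidine kinase (DCK) recover nucleosides from outside the pathway. SAMHD1 breaks deoxynucleotide triphosphates down, and DCTPP1 hydrolyses dCTP and its modified forms. TYMS, TK1, RRM1 and RRM2 are textbook S-phase genes, and inhibitors of TYMS and of ribonucleotide reductase are used as chemotherapy.

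NAT10 siRNA lowered its own target: NAT10 mRNA was at 19.03 and 17.6 FPKM in control and 4.04 and 3.84 FPKM in the NAT10-si libraries (limma adjusted p = 1.1e-04). Of 3 mesenchymal markers, VIM fell (672 and 654 FPKM in control, 458 and 484 FPKM in NAT10-si), FN1 rose (2.58 and 2.47 against 4.80 and 4.52 FPKM) and CDH2 did not pass. Of 5 tested urothelial or epithelial markers, KRT18 fell (85.7 and 85.8 against 53.04 and 53.6 FPKM), KRT7 rose (1.76 and 1.62 against 2.98 and 3.72 FPKM) and KRT8, KRT19 and UPK2 did not pass. KRT19 was at 0.0585 and 0.0656 FPKM in control, at 3.25 FPKM in NAT10-si replicate 2 and at 0.646 FPKM in replicate 3, and it rose when NAT10-si replicate 2 or 3 was left out (limma adjusted p = 0.0396 and 0.00197). The urothelial differentiation marker UPK3A was at 0 in all 4 libraries. Immune markers differed between the arms. The 15 immune markers summed to 3.56 and 2.75 FPKM in the control libraries and to 47.1 and 16.8 FPKM in NAT10-si replicates 2 and 3. All 4 of these that could be tested were higher, where 27.9% of all tested genes rose. Of these 4, LCP1, IGKC and IGHA1 had control means under 1 FPKM and passed the filter only through their NAT10-si values. LCP1 was at 0.837 and 0.848 FPKM in control and at 3.70 and 4.02 FPKM in NAT10-si. The immunoglobulin genes IGKC and IGHA1 were at 0.575 and 0.154 FPKM in control replicate 2 and at 0 in control replicate 3. In NAT10-si replicates 2 and 3, IGKC was at 20.5 and 5.56 FPKM and IGHA1 at 18.9 and 4.17 FPKM. These 2 genes made up most of the immune marker sum in both NAT10-si libraries. With every gene kept, the calls of IGHA1 and HLA-DRA were lost (limma adjusted p = 0.0565 and 0.0638). The HLA-DRA call was also lost without NAT10-si replicate 2 (log2 change 0.33) or either control library (0.35 and 0.38). PTPRC and MS4A1 were at 0 in every library. The myeloid markers CD14, CD68, LYZ, TYROBP, AIF1 and SPI1 were at 0.140 FPKM or less in NAT10-si replicate 2 and at 0.204 FPKM or less in all 4 libraries. The part of this signal in the results below was not tested. Each of the 9 genes was also computed without NAT10-si replicate 2, but replicate 3, which stays in that fit, carried such signal too.

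Of the 9 genes, 8 fell after NAT10 siRNA and none rose, at a limma adjusted p under 0.05. All 9 changes were negative, so none was higher at an unadjusted p under 0.05 or with limma's voom either. Over all 14004 genes tested, 27.9% fell and 27.9% rose by the same rule, 55.8% in either direction. The median log2 change of the 9 genes was -0.64, against 0.0059 over all genes. In all 9 genes both NAT10-si libraries lay below both control libraries, which held for 40.1% of all genes, and 80.4% had no overlap in either direction. Changes ran from -1.66 for TYMS to -0.16 for DCK, the gene that did not pass. Log2 changes are differences of mean log2(FPKM + 1) between NAT10-si and control libraries. In bulk RNA, fewer cells expressing a gene and less RNA per cell cannot be told apart. The RRM2B call was lost when any 1 of the 4 libraries was left out. Without NAT10-si replicate 3 the DCK call was gained (log2 change -0.26), so the set of called genes differed there.

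**Figure D1:**
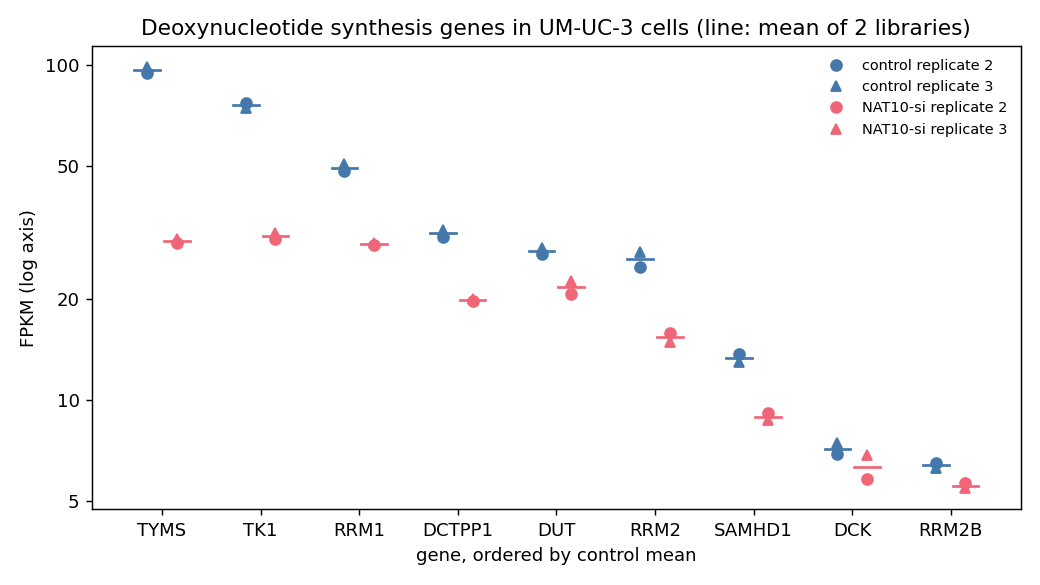
FPKM of the 9 genes on a log axis, with genes in order of their control mean. Each point is 1 library and each short line the mean of 2. The largest gaps between the arms are at TYMS and TK1, and the arms lie closest at DCK and RRM2B.

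**Figure D2:**
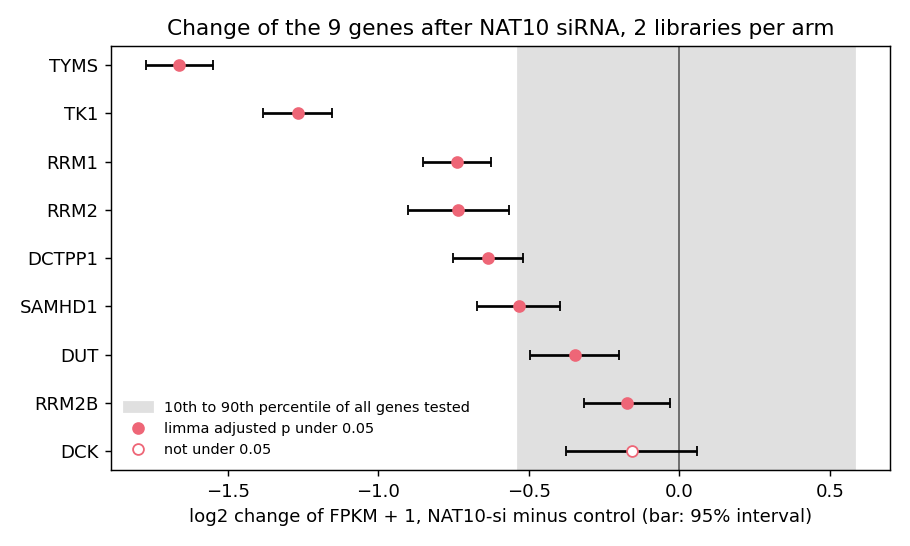
Log2 change of each gene (NAT10-si minus control) with its 95% confidence interval from limma. The grey band spans the 10th to the 90th percentile of all 14004 genes tested, and TYMS, TK1, RRM1, RRM2 and DCTPP1 lie to its left.

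The catalytic subunit RRM1 and its S-phase partner RRM2 fell by nearly the same amount. RRM1 was at 48.1 and 50.6 FPKM in control and 29.0 and 29.4 FPKM in the NAT10-si libraries. RRM2 was at 25.0 and 27.7 FPKM against 15.9 and 14.9 FPKM. Their control and NAT10-si values did not overlap. The log2 change was -0.74 (95% interval -0.85 to -0.62, limma adjusted p = 0.00031) for RRM1 and -0.73 (-0.90 to -0.57, limma adjusted p = 0.00079) for RRM2. The ratio of RRM2 to RRM1 within a library was 0.520 and 0.547 in the control and 0.549 and 0.508 in the NAT10-si libraries, so the arms overlapped.

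RRM2B, the alternative small subunit that quiescent cells use for repair and mitochondrial DNA, moved less. It was at 6.53 and 6.31 FPKM in control and 5.67 and 5.47 FPKM in the NAT10-si libraries. The log2 change was -0.17 (95% interval -0.32 to -0.03, limma adjusted p = 0.046). This call was lost when any 1 of the 4 libraries was left out (limma adjusted p between 0.0818 and 0.199), and also without the filter on low values (limma adjusted p = 0.0899), with a minimum mean of 5 FPKM (limma adjusted p = 0.0516) and with the replicate number as a block (limma adjusted p = 0.064). The ratio of RRM2B to RRM2 was 0.261 and 0.228 in the control libraries and 0.357 and 0.367 in the NAT10-si libraries. The arms therefore did not overlap in this ratio, with NAT10-si at 1.48 times the control mean.

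TYMS showed the largest change of the 9. Its FPKM was 94.3 and 98.5 in the control libraries and 29.4 and 30.2 in the NAT10-si libraries, or 30.9% of the control mean. The recovered reads behind these values were 8521 and 4765 against 1377 and 1334, in libraries of unequal depth. The log2 change was -1.66 (95% interval -1.77 to -1.55, limma adjusted p = 8.1e-05), and only 0.107% of tested genes had a more negative one. The noncoding gene TYMSOS overlaps the start of TYMS on the opposite strand, and no source used here gives the strand setting of the authors' counting, so their reads may not be separable. TYMSOS was at 37.8 and 44.1 FPKM in control and 11.3 and 12.7 FPKM in the NAT10-si libraries, a log2 change of -1.69 (limma adjusted p = 0.00025). The ratio of TYMSOS to TYMS lay between 0.382 and 0.448 in the 4 libraries.

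DUT, which supplies the substrate of TYMS and keeps uracil out of DNA, changed less than TYMS. It was at 27.3 and 28.4 FPKM in control and 20.8 and 22.7 FPKM in the NAT10-si libraries. The log2 change was -0.35 (95% interval -0.49 to -0.20, limma adjusted p = 0.0055), and 19.5% of tested genes had a more negative one. The ratio of TYMS to DUT was 3.46 in both control libraries and 1.42 and 1.33 in the NAT10-si libraries.

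The salvage kinases differed from each other. TK1, which phosphorylates thymidine in S-phase, was at 77.2 and 74.6 FPKM in control and 30.2 and 31.6 FPKM in the NAT10-si libraries. Its log2 change was -1.27 (95% interval -1.38 to -1.15, limma adjusted p = 0.00013). DCK, which phosphorylates deoxycytidine and activates cytarabine and gemcitabine, was at 6.92 and 7.44 FPKM in control and 5.82 and 6.86 FPKM in the NAT10-si libraries. It did not pass, with a log2 change of -0.16 and an interval from -0.38 to 0.06 (limma adjusted p = 0.17). Without NAT10-si replicate 3 it did (-0.26, limma adjusted p = 0.0494, in a range over alternatives up to 0.577), and without NAT10-si replicate 2 the change was -0.06. The ratio of TK1 to DCK was 11.2 and 10.02 in the control libraries and 5.19 and 4.61 in the NAT10-si libraries.

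Both genes for enzymes that remove deoxynucleotides also fell. SAMHD1, a triphosphohydrolase that is abundant in myeloid cells and restricts viruses there, was at 13.7 and 13.0 FPKM in control and 9.14 and 8.74 FPKM in the NAT10-si libraries. Its log2 change was -0.53 (95% interval -0.67 to -0.40, limma adjusted p = 0.0011). Without NAT10-si replicate 2, the library with the most immune marker signal, it was -0.56. In that library IGKC and IGHA1 were at 20.5 and 18.9 FPKM, LCP1 at 3.70 FPKM and the myeloid markers named above at 0.140 FPKM or less. NAT10-si replicate 3, which stays in that fit, also carried signal, with the 15 immune markers at 16.8 FPKM in sum and CD68 at 0.204 FPKM. Its part in the SAMHD1 values was not tested. DCTPP1 was at 30.7 and 32.2 FPKM against 19.8 and 20.02 FPKM. Its log2 change was -0.64 (95% interval -0.75 to -0.52, limma adjusted p = 0.00046).

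The unequal changes compressed the range of levels. In the control libraries TYMS led at a mean of 96.4 ± 2.99 FPKM (SD, n = 2), followed by TK1 at 75.9 ± 1.86 and RRM1 at 49.3 ± 1.74 FPKM. In the NAT10-si libraries TK1, TYMS and RRM1 had means of 30.9 ± 0.968, 29.8 ± 0.543 and 29.2 ± 0.293 FPKM. Both TK1 libraries there lay above both TYMS libraries, and both TYMS libraries above both RRM1 libraries, but by less than 1 FPKM between the nearest values. The ratio of TYMS to RRM1 went from 1.96 and 1.95 to 1.02 and 1.03, and that of TK1 to TYMS from 0.819 and 0.757 to 1.03 and 1.05. DCTPP1, DUT, RRM2, SAMHD1, DCK and RRM2B followed in the control arm, and only DUT and RRM2 overlapped as neighbours there. DUT stood above DCTPP1 in the NAT10-si arm, with no overlap between neighbours. These levels are per length of the authors' gene models, so an extended model lowers a gene's FPKM.

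**Figure D3:**
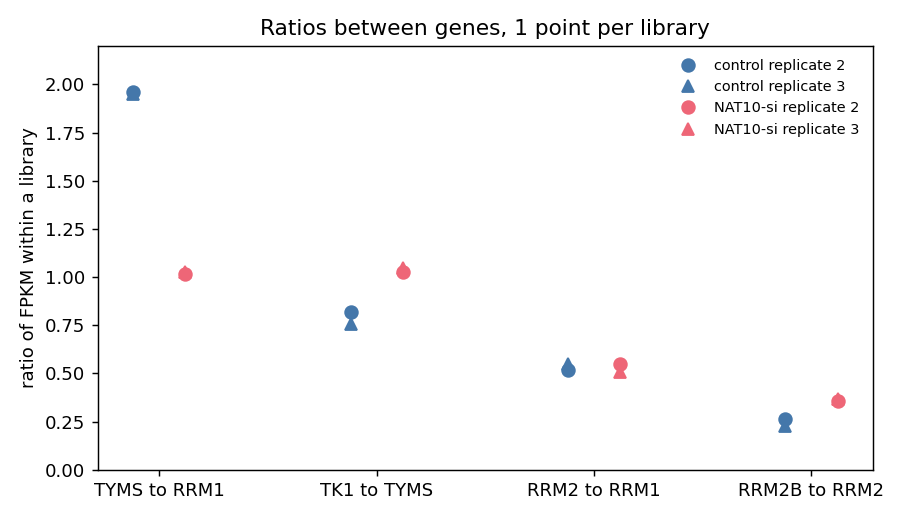
Ratio of FPKM between pairs of genes within each library, with 1 point per library. TYMS to RRM1 falls from near 1.95 to near 1.02 and RRM2B to RRM2 lies higher in both NAT10-si libraries, while RRM2 to RRM1 overlaps between the arms.

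The profiles most like those of 4 of the genes were found by the Euclidean distance between log2(FPKM + 1) values centred on the control mean, over the 4 libraries and among genes with a mean of 10 FPKM or more, 4916 for TYMS. Nearest to TYMS were GINS1, a subunit of the replicative helicase (distance 0.116), the translation initiation factor EIF5 (0.125) and TYMSOS (0.148). GINS1 was at 21.4 and 22.1 FPKM against 5.57 and 6.39 FPKM. Nearest to RRM2 were HAUS6, LARP4 and the transferrin receptor TFRC (0.035, 0.040 and 0.047). Nearest to RRM2B were WDR5B-DT, POLR2C and PQBP1, and the nearest to SAMHD1 included ENSG00000257553 and RFLNB. With 4 libraries in 2 arms, this likeness mostly restates the size of the change.

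The rest of the pathway was read from lists of genes. Their counts stand beside the 27.9% that fell and the 27.9% that rose over all 14004 genes tested. Among the kinases, deaminases and carriers of deoxynucleotide salvage, 7 of 12 tested genes fell and 3 rose (median log2 change -0.22). DTYMK, the kinase that acts on the product of TYMS and TK1, fell from 18.7 and 17.2 to 9.61 and 10.6 FPKM (log2 change -0.77). The nucleoside carrier SLC29A1 fell by 0.45 on the log2 scale, the scale of all changes given this way below. Against this direction, ADA, which deaminates adenosine and deoxyadenosine, rose from 15.4 and 15.3 to 27.8 and 27.6 FPKM (log2 change 0.81), and the guanylate kinase GUK1 rose by 0.50. TK2, the mitochondrial thymidine kinase, rose by 0.21 (limma adjusted p = 0.048), a call lost without any 1 of the 4 libraries (limma adjusted p between 0.0985 and 0.211) and with quantile normalization, the replicate block or every gene kept (limma adjusted p = 0.0958, 0.0756 and 0.121). CDA and NME2 lay under the filter.

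Among genes that clean or break down the pool, 2 of 6 tested fell and 1 rose (median log2 change -0.07). Over all genes tested 27.9% fell and 27.9% rose, so these counts are near the background. NUDT1, which removes 8-oxo-dGTP, fell from 9.38 and 8.88 to 7.06 and 6.28 FPKM (log2 change -0.40). UPP1, a uridine phosphorylase, rose from 13.0 and 13.3 to 20.8 and 21.2 FPKM. ITPA did not pass, at 26.2 and 23.2 against 21.5 and 22.9 FPKM.

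The folate cycle hands TYMS its methyl group, and 5 of its 8 tested genes fell and none rose in limma, at an adjusted or an unadjusted p under 0.05 (median log2 change -0.32). With voom 1 of them rose. The folate carrier SLC19A1 and MTHFD1 fell by 0.76 and 0.62, the latter from 25.2 and 25.2 to 16.2 and 16.0 FPKM, and SHMT2 fell by 0.32. Of 5 partners of ribonucleotide reductase 2 fell and 1 rose (median log2 change 0.10), counts near the background of 27.9% in each direction over all genes. CCNF, the F-box protein that marks RRM2 for degradation, fell from 10.8 and 10.6 to 4.08 and 4.80 FPKM, TXNRD1 fell by 0.63, and glutaredoxin (GLRX) rose from 2.50 and 2.50 to 5.17 and 5.22 FPKM. Thioredoxin (TXN), the other electron donor, was at 150.0 and 174 against 183 and 190 FPKM with no call (limma adjusted p = 0.070, from 0.000564 to 0.317 over the alternatives). Without control replicate 3 it rose (limma adjusted p = 0.0193), which made 2 partners higher.

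Ribonucleotide synthesis upstream was read from lists of pyrimidine and purine genes. All 4 tested genes of pyrimidine synthesis fell, with a median log2 change of -0.65. CTPS1, which makes CTP, went from 32.9 and 32.5 to 18.05 and 17.8 FPKM (log2 change -0.83), UMPS fell by 0.87 and CAD by 0.46. DHODH fell by 0.39, a call lost with every gene kept (limma adjusted p = 0.075). It was also lost without control replicate 3 (log2 change -0.30) or NAT10-si replicate 3 (-0.34). Of 11 tested genes of purine synthesis 8 fell, with a median of -0.40, and PPAT, IMPDH1 and ADSS2 did not pass (log2 changes 0.06, 0.07 and -0.10). No tested gene of either list rose in limma, at an unadjusted p under 0.05 or with voom. CTPS2, ADSL and ADSS1 lay under the filter. ADSS1 was at 0.251 and 0.230 FPKM in control and 1.39 and 1.28 FPKM in NAT10-si, and CTPS2 at 0.0595 and 0.00927 against 0.192 and 0.223 FPKM. Without the filter 1 gene of each list was called higher. PFAS went from 20.2 and 20.6 to 8.25 and 8.38 FPKM (log2 change -1.20), and PRPS1, GMPS and GART fell by 0.48, 0.49 and 0.46.

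Of 13 S-phase reference genes 12 fell (median log2 change -1.25), and none rose in limma, at an unadjusted p under 0.05 or with voom. Their summed level was 654 and 647 FPKM in control and 264 and 265 FPKM in NAT10-si. PCNA, MCM2, MCM4 and MCM7 changed by -1.44, -1.40, -1.44 and -1.25. On the log2(FPKM + 1) scale TYMS changed by more than any gene of this list and TK1 by slightly more than its median. The other 7 genes were nearer to 0 than that median. As a percent of the control mean, CCNE2 of this list fell further, to 29.0% against 30.9% for TYMS. Of 16 tested p53 target genes, a list set beside RRM2B, 6 rose and 2 fell, with a median of 0.17. Over all genes tested 27.9% rose and 27.9% fell. GDF15 rose from 0.275 and 0.318 to 4.22 and 4.90 FPKM and BBC3 by 1.26, while MDM2 fell by 0.63 and XPC by 0.29. Without control replicate 2, 3 p53 targets rose and 1 fell, and the XPC call was lost (limma adjusted p = 0.062). The part of the S-phase genes in the change of the 9 genes was not tested.

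**Figure D4:**
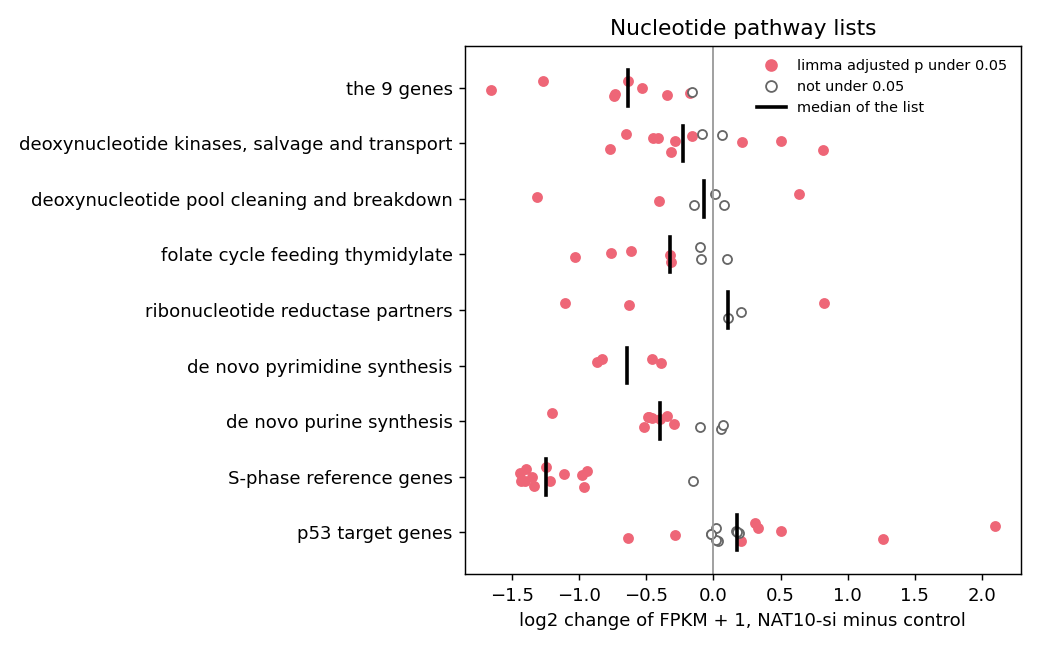
Log2 change (NAT10-si minus control) of every tested gene of each list, with the median as a black bar. Filled points passed limma at an adjusted p under 0.05. The S-phase list lies farthest to the left, with a median of -1.25, and the salvage list holds genes on both sides.

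Sequences before the start sites of the genes were taken from RefSeq (GRCh38.p14), as 300-base windows from 250 bases before to 50 bases after each start, for 8 of the 9 genes. RRM2B had no entry. They are shown because S-phase genes are classically read by E2F factors and by the CCAAT-binding factor NF-Y, and because the genes that fell together can be compared letter by letter. On both strands, the E2F words TTTCCCGC, TTTGGCGC, TTTCGCGC and TTTGCCGC were found in the windows of 3 genes (TYMS, DUT and DCK), against 3.99% of the 27305 genes in the table. The word CCAAT was found for 4 genes (RRM1, RRM2, TK1 and SAMHD1), against 39.7% of genes, and TTTGAA, the core of the cell cycle element CHR, for RRM1 and DUT, against 18.2% of genes. DCTPP1 held none of these words. No match says only that these letters are not in the window. Each run below has 30 bases in the direction of the gene, with the E2F or CCAAT word, or its reverse complement, in capitals.
TYMS, chr18:657603-657632 (+ strand): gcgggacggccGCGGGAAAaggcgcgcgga
DUT, chr15:48332151-48332180 (+ strand): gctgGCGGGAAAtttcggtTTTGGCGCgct
DCK, chr4:70993659-70993688 (+ strand): gctgcctccgcGCGCCAAAgtcaaaccccg
RRM1, chr11:4094644-4094673 (+ strand): ggcatgtccatatCCAATggggcccatggg
RRM2, chr2:10122603-10122632 (+ strand): gggcaaggcgcagCCAATgggaagggtcgg
RRM2, chr2:10122633-10122662 (+ strand): aggcatggcacagCCAATgggaagggccgg
RRM2, chr2:10122660-10122689 (+ strand): cggggcaccaaagCCAATgggaagggccgg
RRM2, chr2:10122318-10122347 (+ strand): tCCAATcgctgctcctcacgcaatcctaaa
TK1, chr17:78187113-78187142 (- strand): cggccgggcgctgATTGGccccatggcggc
TK1, chr17:78187082-78187111 (- strand): gggccggctcgtgATTGGccagcacgccgt
SAMHD1, chr20:36951735-36951764 (- strand): caggaggCCAATaggctgCCAATactcctt

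The E2F words of TYMS and DUT lie before the start site and that of DCK after it. DUT has 4 annotated starts, and its pair of words is in the window of the start farthest into the gene. RRM2 shows CCAAT at 4 places over its 2 windows, and TK1 shows its reverse complement at 2 places in 1 of its 2 windows. Genes with an E2F word included TYMS, with the largest change, and DCK, which did not pass. TYMS is also shown with the 250 bases before its start at chr18:657403-657652.
TYMS: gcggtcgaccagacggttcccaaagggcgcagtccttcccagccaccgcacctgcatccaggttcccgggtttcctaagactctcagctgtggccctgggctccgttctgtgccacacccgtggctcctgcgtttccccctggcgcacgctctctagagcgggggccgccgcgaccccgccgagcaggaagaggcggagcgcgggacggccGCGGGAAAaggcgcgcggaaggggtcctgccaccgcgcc

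The peak lists were used to ask which of the 9 transcripts carried acRIP peaks in either arm. None of the 9 had a peak in the first-round lists, where only 3.03% (control) and 3.48% (NAT10-si) of the 14004 tested genes had one. In the replicate round 5 of 9 genes had a peak in the control list, against 49.6% of tested genes, and 7 of 9 in the NAT10-si list, against 64.5%. TYMS, RRM2, TK1, DUT and DCTPP1 were in both lists, RRM1 and DCK in the NAT10-si list only, and RRM2B and SAMHD1 in none. Both lists named 43.9% of tested genes. With 1 list per arm and round there is no test, and the members' shares are near the background. Folds below are the authors' fold enrichments and rank peaks only within their own list.

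**Figure D5:**
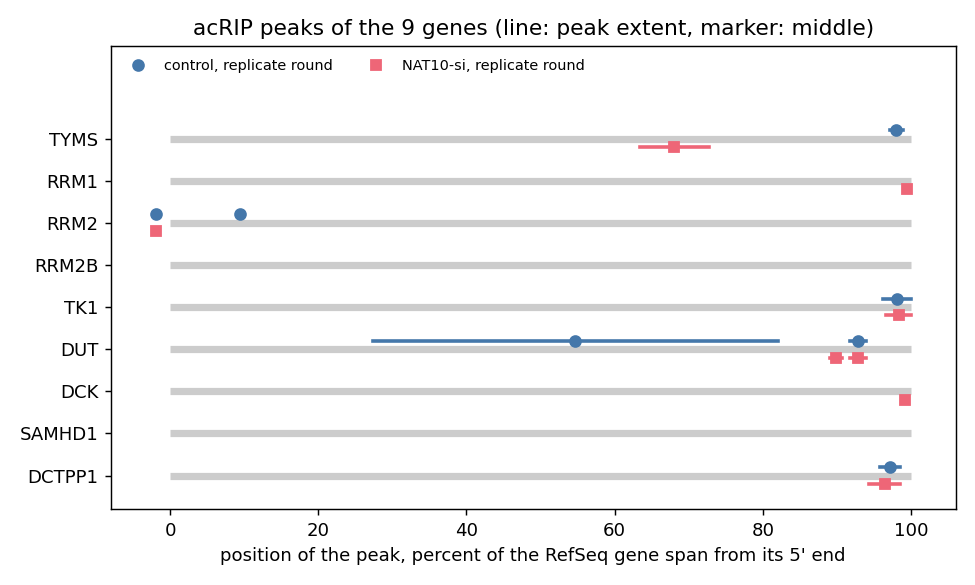
Position of each peak in the replicate-round lists along the RefSeq gene span, from the 5' end (0 percent) to the 3' end (100 percent). Markers are peak middles and lines the extent from first to last base. Peaks of TK1, DCTPP1, RRM1 and DCK sit at the 3' end. Those of RRM2 sit before or near the start of a RefSeq span of 88443 bases. Where they lie within the RRM2 transcript was not analysed.

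In the control list the highest folds among the 9 genes were those of DUT and TK1. The DUT peak at chr15:48342358-48342626 had the same borders in both arms, 747 bases before the 3' end of the gene, and an authors' fold of 175 in the control list, where 4.81% of peaks had a higher one. Its fold in the NAT10-si list was 31.6, where 21.0% were higher. DUT also had a peak of 4 blocks at chr15:48334464-48341163 in the control list (fold 3.09) and one at chr15:48342029-48342238 in the NAT10-si list (fold 14.0). The TK1 peak reached the 3' end of the gene, at chr17:78174075-78174577 in the control list (fold 85.3, with 13.6% of peaks higher) and at chr17:78174075-78174518 in the NAT10-si list (fold 11.2, with 65.0% higher). The lists hold 10253 and 16753 peaks with median folds of 24.1 and 14.0, so a change in fold or rank between them is not a measured change of the mark.

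RRM2 and DCTPP1 also had peaks at overlapping places in both arms. The RRM2 peak lay at chr2:10120818-10121057 in the control list (fold 41.3) and at chr2:10120728-10120997 in the NAT10-si list (fold 49.1), at -1750 to -1511 and -1840 to -1571 bases from the start of the RefSeq gene. A second RRM2 peak at chr2:10130821-10131090 was in the control list only (fold 3.01). It lay 8253 to 8522 bases from the start of a RefSeq span of 88443 bases. The DCTPP1 peak at chr16:30423708-30423887 in the control list (fold 8.02) lay inside the one at chr16:30423708-30423977 in the NAT10-si list (fold 11.5). In all, 4 genes had overlapping peaks in both arms. The share of all tested genes with such an overlap was not computed, so this count has no background beside it. The control peak of DCTPP1 had an authors' log10 false discovery rate of -1.22, and the DCK peak described next one of -1.26, the weakest among the 9 genes.

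TYMS, the gene whose mRNA fell most, had peaks at different places in the arms. The control list placed it at chr18:673132-673400, within 446 bases of the 3' end (fold 5.50), and the NAT10-si list at chr18:667744-669241, in 2 blocks that cover 179 bases (fold 2.30). Folds this low were exceeded by 90.9% and 97.0% of the peaks in their lists. RRM1 had a peak at chr11:4138518-4138846 (fold 21.1) and DCK at chr4:71030527-71030706 (fold 7.02), both near the 3' end and in the NAT10-si list only. Of the peaks of the 9 genes that overlap the RefSeq span, 3 of 6 in the control and 4 of 7 in the NAT10-si list came within 500 bases of the 3' end, against 56.5% and 47.3% of all peaks in a RefSeq gene. The RRM2 peak in this count was measured to the end of a span of 88443 bases, so its distance depends on that span. The exon or UTR that each peak covers was not analysed here.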

How the data were processed

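UM-UC-3 cells were profiled by RNA-seq and acRIP in 2 arms. Among the tools in the submitters' processing notes are HISAT2 2.1.0, HTSeq 0.6.1 and bcl2fastq 2.19.1, next to the build hg19 and with no role stated. The values the authors deposited, 1 per gene and library, were read here as FPKM: the header names no unit, totals lay between 310508 and 319224, and the smallest step depended on the gene. Per the file headers, each peak has a p-value, log10 scores of p and false discovery rate, and a fold (ratio). No source used here names the peak caller. Peak starts count from 0 in the deposited lists and are printed from 1. Between 97.3% and 98.4% of peaks with a RefSeq gene overlapped it in GRCh38.p14, so that build was used for positions although the notes name hg19.

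limma-trend (limma 3.58.1, R 4.3.3) was fitted to log2(FPKM + 1) of the 14004 genes whose mean reached 1 FPKM, and p was adjusted by Benjamini-Hochberg (threshold 0.05). The pseudocount understates changes of low genes. The script was tested on simulated data. Whole reads were recovered for 27562 of 27571 genes above 0 in at least 2 libraries, as the smallest numbers that fit within rounding and a relative tolerance of 2e-08. A common factor is lost, so the reads may be more. Replicates differed beyond sampling noise (chi-square per gene 2.95 and 2.7).

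Members and lists were chosen with earlier results of these data known. Named genes were the 9 members, NAT10, TYMSOS, up to 4 genes per list by p with those moving against their list, and the 3 nearest profiles of 4 members. Some genes that this rule names are not reported here. No set test was run. Alternatives covered the pseudocount, filter, scaling, voom on recovered reads, a replicate block, leaving out each library, and peak thresholds.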

Additional observations from a re-analysis of the deposited data

How the results depend on the processing

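TYMS, RRM1, RRM2, TK1, DUT, SAMHD1 and DCTPP1 kept their direction and their call under all 11 alternatives of the expression fit, and no named gene reversed. Between 7 and 8 of the 9 genes were called lower, and 0 higher, with any single library left out or any other setting. With RRM2B as the gene lost, 7 were called with no filter on low values, with a minimum mean of 5 FPKM and with the replicate block. The libraries share replicate numbers but no label pairs them, and deviations of same-numbered libraries correlated at 0.0125. With the block, 3630 genes were called lower and 3664 higher, against 3911 and 3904, and 2 reductase partners were higher. With voom on recovered reads 1 folate gene and 3 reductase partners were higher. With a minimum mean of 5 FPKM, fewer genes were tested, and 2 pyrimidine genes and 1 p53 target were lower and 2529 genes higher in all. With no filter on low values 1 pyrimidine and 1 purine gene were higher. With 1 library left out, the counts ranged from 1 to 2 reductase partners higher, from 1 to 2 p53 targets lower and from 3 to 5 higher. The cause of these shifts was not tested where none is named. At a false discovery rate of 0.01, 4 genes had a control peak and 6 a NAT10-si peak in the replicate round. With lists of equal length these were 5 and 6. Overlap in both arms held for 3 to 4 genes. The shares of all tested genes were not computed at these peak settings or for overlap, so these counts have no background.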
